A study of Mus musculus with 8 samples.

Results

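The genes described here are the replication-dependent histone genes of mouse sacral neural crest cells. Members were all probe sets with 1 gene symbol in the platform annotation whose symbol begins with H1f, H2ac, H2bc, H3c or H4c and a number (the older names begin with Hist1h to Hist4h). They came to 24 of the 6855 genes tested: 6 of linker histone H1, 4 of H2A, 7 of H2B, 2 of H3 and 5 of H4. Each had 1 probe set, 23 lay on chromosome 13, in the main histone gene cluster of the mouse, and H1f7 lay on chromosome 15. By the same rule the RefSeq gene table held 70 genes, of which 37 more were covered by probe sets that name several histone genes and 9 were not analysed here.

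The 8 arrays (Affymetrix Mouse Gene 1.0 ST) came from 2 groups of 4. One group was homozygous for Dom, a frameshift allele of Sox10 (Dom/Dom), and the other was wild type; neither label names a strain, transgene or further allele. In both groups the neural tube caudal to somite 24 was dissected at embryonic day 9.5 and kept in DMEM/F12 with 10% serum, the explant was removed after 24 hours, and RNA was taken from the cells that had migrated out. Such cultures are defined by migration and not by a sort. Nothing says that the replicates came from separate embryos, litters or cultures, so the p-values reflect how far these arrays differ from one another, part of which may be technical.

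Replication-dependent histone genes supply the histones that package newly copied DNA. Their mRNAs lack introns and a poly(A) tail and end in a stem-loop that the stem-loop binding protein holds; they accumulate in S phase and are degraded when DNA synthesis stops. H2A, H2B, H3 and H4 form the nucleosome core, and H1 binds the linker DNA between nucleosomes. Apart from H1, whose genes encode distinct subtypes, most copies within a class encode identical or nearly identical proteins, so their coding sequences are alike. Some genes that the naming rule takes in are known from the germ line instead: H1f6 (the testis H1t), H1f7 (a spermatid H1), H2ac1 and H2bc1 (the testis forms of H2A and H2B). Cells that leave the neural tube go on dividing, and histone mRNA in a bulk culture therefore reflects both how many cells are in S phase and how much each contains, which cannot be told apart here.

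The sequences upstream of the start show what the members share by class. RefSeq promoter windows (GRCm38.p6, 250 bases before to 50 bases after the start) were found for 22 of the 24 genes, and 4 motifs were searched on both strands: the TATA box as TATAAA, the CCAAT box as CCAAT, the octamer that POU2F1 binds as ATTTGCAT, and the H1 box as AAACACA. None of the 4 motifs contains another. TATAAA was present in 15 of the 22 windows (68.2%) against 13.6% of 32851 RefSeq windows of the same length, and CCAAT in 18 (81.8%) against 37.4%. ATTTGCAT was present in 7 (31.8%) against 1.74%; 4 of the 6 H2B windows and 3 of the 4 H2A windows held it, and 0 of the 6 H1 and 0 of the 5 H4 windows. AAACACA was present in 8 (36.4%) against 7.18%. These were 4 of the 6 H1, 2 of the 4 H2A and 2 of the 6 H2B windows, with 0 of the 5 H4 windows and 0 of the 1 H3 window. A match is a description of these letters and not a binding site. The windows of neighbouring divergent genes overlap, so their matches are partly the same bases.

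The 150 bases before the start are printed for the member with the highest mean level of each class, 5′ to 3′ on the strand of the gene, with matches to the 4 motifs in capitals.
H1f5 (chr13:21780626-21780775, minus strand): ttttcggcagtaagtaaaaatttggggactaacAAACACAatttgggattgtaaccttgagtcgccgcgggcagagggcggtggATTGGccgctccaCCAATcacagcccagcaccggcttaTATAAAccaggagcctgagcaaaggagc
H2ac15 (chr13:21753913-21754062, minus strand): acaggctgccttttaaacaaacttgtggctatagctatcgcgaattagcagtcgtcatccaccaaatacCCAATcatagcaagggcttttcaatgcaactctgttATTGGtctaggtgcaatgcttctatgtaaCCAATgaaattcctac
H2bc14 (chr13:21721894-21722043, plus strand): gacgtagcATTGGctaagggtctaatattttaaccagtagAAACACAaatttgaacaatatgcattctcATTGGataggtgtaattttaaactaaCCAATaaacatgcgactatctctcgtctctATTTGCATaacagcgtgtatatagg
H3c4 (chr13:23575613-23575762, plus strand): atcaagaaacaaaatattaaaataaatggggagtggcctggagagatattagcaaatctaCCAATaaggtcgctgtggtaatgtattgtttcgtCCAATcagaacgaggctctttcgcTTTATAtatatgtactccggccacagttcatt
H4c4 (chr13:23581418-23581567, plus strand): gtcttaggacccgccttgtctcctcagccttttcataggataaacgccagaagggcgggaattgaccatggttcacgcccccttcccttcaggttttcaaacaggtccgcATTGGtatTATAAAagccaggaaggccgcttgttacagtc

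Histone genes often lie head to head, an H2A gene sharing its upstream region with an H2B gene. Among the members this held for H2ac8 with H2bc8, with 179 bases between their starts, and for the germ-line genes H2ac1 with H2bc1, with 280 bases. The bases between the starts are printed because each pair shares them, with the same motifs in capitals.
H2ac8 and H2bc8 (chr13:23571221-23571399, plus strand): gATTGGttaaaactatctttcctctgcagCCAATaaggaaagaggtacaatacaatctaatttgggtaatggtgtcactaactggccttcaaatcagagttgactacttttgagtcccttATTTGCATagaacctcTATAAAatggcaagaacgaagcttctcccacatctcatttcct
H2bc1 and H2ac1 (chr13:23934157-23934436, plus strand): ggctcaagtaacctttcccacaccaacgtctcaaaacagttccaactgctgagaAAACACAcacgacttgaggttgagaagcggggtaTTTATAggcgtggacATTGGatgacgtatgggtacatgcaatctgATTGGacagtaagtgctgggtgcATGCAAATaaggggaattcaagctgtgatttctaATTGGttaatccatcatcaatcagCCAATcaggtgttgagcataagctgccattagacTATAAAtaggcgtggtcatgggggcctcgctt

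All levels are on the log2 scale, after processing with RMA, for 1 probe set on 1 array. Array medians lay between 8.60 and 8.78, and the highest value of each array between 14.67 and 14.78. Probe sets differ in affinity and no detection calls came with the values, so a level is given as the signal of that probe set and is not compared between genes. Of the neural crest markers listed for these cells, 8 of 12 were measured, at mean levels from 11.10 (Sox10) to 12.48 (Pax3); 0 of 7 neural tube, 6 of 8 mesoderm, 3 of 5 epithelial, 2 of 6 blood and macrophage and 1 of 5 endothelial markers were measured. Sox10 itself was lower in Dom/Dom, at 10.50 ± 0.40 against 11.69 ± 0.18 (SD, n = 4; adjusted p = 0.0168 in limma), but this is no check of the labels, since a Dom transcript is still produced. Of the 8 neural crest markers 6 were lower in Dom/Dom by their means, with a median difference of -0.71. Sox10 and Erbb3, a neuregulin receptor (-1.57, limma adjusted p = 0.0214), passed. With the replicate number as a block Tfap2a (-0.50, limma adjusted p = 0.0418) passed as well. Summed over the 8 genes, as log2 of the summed linear signal, the neural crest markers lay between 14.49 and 14.62 in the Dom/Dom arrays and between 14.90 and 15.27 in wild type. The 6 mesoderm markers had a median difference of 0.19, with 5 above 0 and summed levels of 11.46 to 12.04 against 11.12 to 11.67. Without the block 0 of them passed, and with it Prrx1 did (0.44, limma adjusted p = 0.0339). The 3 epithelial markers, 1 above 0 and 2 below, had a median difference of -0.16. Among them Krt8 (-0.50) passed with the block alone (limma adjusted p = 0.0164). The neural crest marker sums thus did not overlap between the genotypes and the mesoderm sums did. Within each replicate number the mesoderm sum was higher in Dom/Dom (11.46, 11.61, 11.90 and 12.04 against 11.27, 11.12, 11.65 and 11.67). The epithelial sum was lower within each (13.36, 13.05, 13.16 and 13.29 against 13.80, 13.15, 13.44 and 13.42). The part of such marker shifts in the histone values was not tested.

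No histone gene was found to differ between the genotypes. Of the 24 members, 0 passed an adjusted p of 0.05 in limma, with or without the replicate number as a block, against 0.481% of all genes tested without the block and 1.5% with it. The count at an unadjusted p under 0.05 was also 0 in both fits, against 6.11% and 13.9% of all genes. The limma adjusted p was 1.00 for each member without the block and ran from 0.467 to 0.997 with it. Exact two-sided permutation tests over the 8 arrays gave p from 0.114 to 1.00, where the smallest possible is 0.0286. In 0 of the 24 genes were the 4 Dom/Dom arrays all above or all below the 4 wild-type arrays, against 3.78% of all genes.

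The differences were also small. Dom/Dom minus wild type ran from -0.15 (H2ac4) to 0.15 (H1f3) log2 units, with standard errors from 0.07 to 0.16 and a median over the members of -0.013, beside -0.0009 over all genes. The median size of a difference, regardless of sign, was 0.029 in histone genes and 0.060 in all genes. A difference larger than 0.2 in size was seen in 0 of 24 histone genes and in 9.82% of all genes. Of the 24 members 8 had mean levels below 9, down to 6.17 (H2ac8). Without detection calls it is not known whether such dim probe sets detected their genes, so small differences there cannot be read as unchanged genes. The spread between arrays of a genotype had a median SD of 0.12 over the members and 0.15 over all genes. The 95% intervals, from the fit without the block and not adjusted for the number of genes, lay within 0.3 of 0 for 19 of the 24 members. The interval that reached furthest from 0, that of H2ac4, allowed a change of up to 1.43-fold, and the one that reached least far up to 1.14-fold. With the replicate number as a block the H2ac4 interval was -0.34 to 0.04, and that of H1f3 (-0.06 to 0.37) reached furthest. The H2bc3 interval narrowed from -0.39 to 0.34 without the block to -0.16 to 0.11 with it. That of H3c7 widened slightly, from -0.27 to 0.17 to -0.28 to 0.19. Of the 24 genes 7 lay above 0 and 17 below as deposited. Once each array was centred on its median 17 lay above 0, and after a further quantile normalization 11. The median over all genes moved as well, to 0.035 and 0.008, beside 0.022 and -0.003 for the members. In each of these settings the members' median lay below that of all genes, which was not tested. The sign count thus depends on the scaling, and no direction is given for the family.

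**Figure D1:**
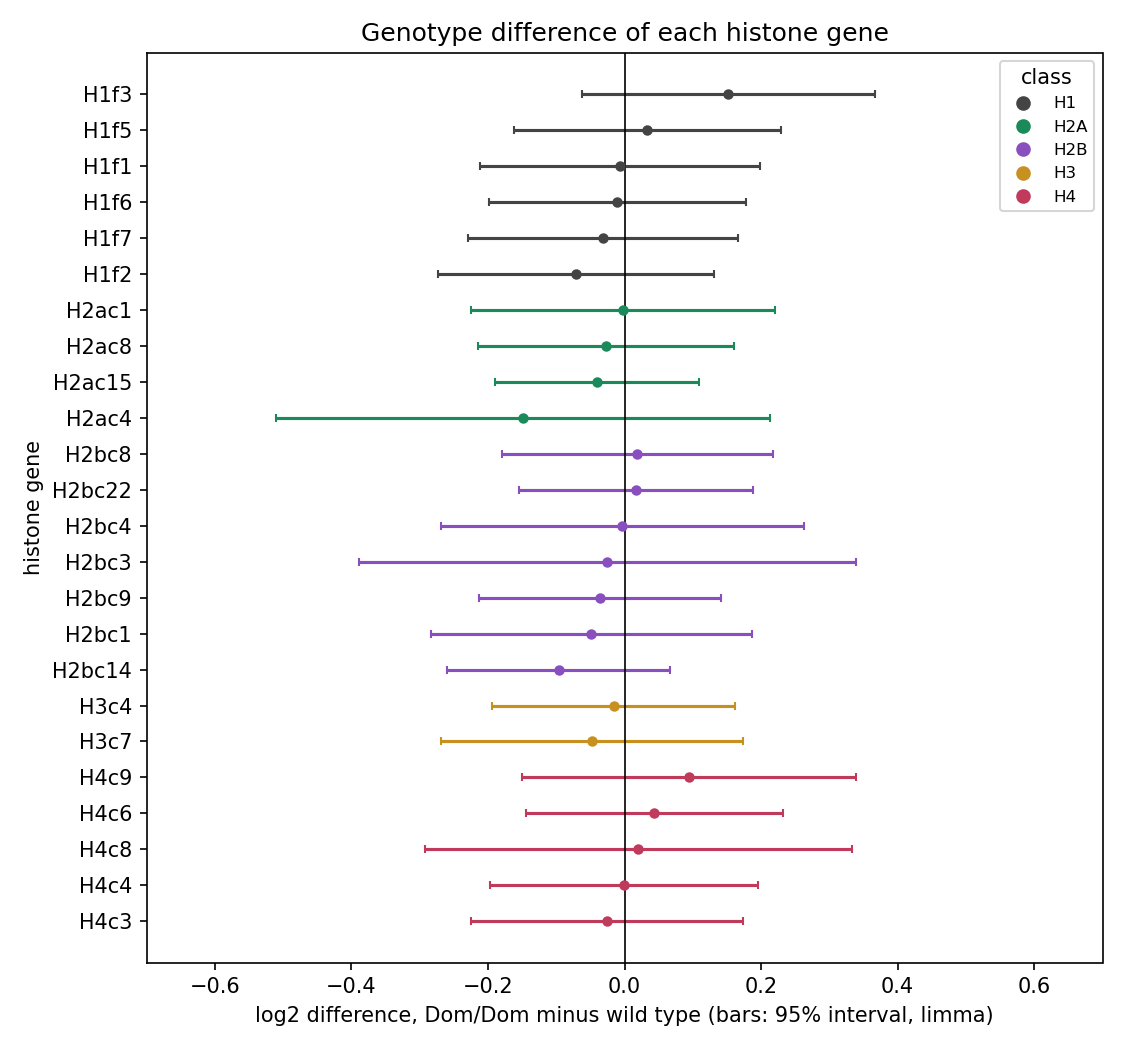
Difference of each of the 24 histone genes on the x axis, as Dom/Dom minus wild type in log2 units, with genes on the y axis coloured by class. Points are estimates and bars 95% intervals from limma without the replicate block (n = 4 arrays per genotype). All 24 intervals include 0, and that of H2ac4, from -0.51 to 0.21, reaches furthest from it.

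Linker histone genes were represented by H1f1, H1f2, H1f3 and H1f5, which are the S-phase H1 genes of dividing cells, and by the germ-line genes H1f6 and H1f7. H1f3 had the largest positive difference of all members. Its levels were 7.87, 7.95, 8.11 and 8.001 in Dom/Dom replicates 1 to 4 and 7.80, 7.998, 7.62 and 7.91 in wild type. The groups overlapped, and the gap came mainly from replicate 3, where the wild-type array was the lowest of all and the Dom/Dom array the highest. The difference was 0.15 (95% interval -0.06 to 0.37; limma adjusted p = 1.00), and 3 of 4 same-numbered pairs were higher in Dom/Dom, by 0.07, 0.49 and 0.09, against -0.05 in pair 2. H1f3 was the single member with an unadjusted p under 0.05 in any of the settings tried, with array weights (difference 0.26, adjusted p = 0.261 in limma).

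H1f5, the brightest H1 probe set, read 12.41, 12.61, 12.53 and 12.33 in Dom/Dom and 12.34, 12.55, 12.48 and 12.38 in wild type. Both genotypes were highest in replicate 2 and lower in replicates 1 and 4, and they differed by 0.03 (-0.16 to 0.23). H1f2 read 11.25, 11.56, 11.30 and 11.48 against 11.46, 11.58, 11.37 and 11.47 in wild type, with its lowest values in Dom/Dom replicates 1 and 3. Its difference was -0.07 (-0.27 to 0.13), within the spread of either group. H1f1 was at 12.25 ± 0.11 and 12.25 ± 0.13 (SD, n = 4). The germ-line genes H1f6 (7.54 ± 0.14 and 7.55 ± 0.03) and H1f7 (8.75 ± 0.14 and 8.78 ± 0.08) differed by -0.01 and -0.03.

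The 4 H2A genes all had differences below 0 as deposited, from -0.15 to -0.002, and 0 of 4 passed. H2ac4 had the largest negative difference of all members and one of the widest spreads. Its levels were 9.41, 9.77, 10.02 and 9.51 in Dom/Dom and 9.74, 9.65, 10.24 and 9.66 in wild type. The highest array of each genotype was that of replicate 3, and the groups overlapped over most of their range. The difference was -0.15 (95% interval -0.51 to 0.21), and pair 2 ran the other way (0.12, against -0.34, -0.22 and -0.16).

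H2ac15 showed the smallest spread of the members. It read 13.69, 13.71, 13.77 and 13.75 in Dom/Dom and 13.78, 13.72, 13.79 and 13.77 in wild type, a range of 0.10 over all 8 arrays. Dom/Dom was lower in 4 of 4 pairs, but by 0.02 to 0.09, and the groups overlapped; the difference was -0.04 (-0.19 to 0.11; exact permutation p = 0.171). H2ac8, with the dimmest member probe set (6.16 ± 0.11 and 6.18 ± 0.09), and the germ-line H2ac1 (10.34 ± 0.14 and 10.34 ± 0.14, SD, n = 4) differed by -0.03 and -0.002.

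Of the 7 H2B genes, 0 passed, and their differences ran from -0.10 to 0.02. H2bc14, the brightest of them, read 13.20, 13.13, 13.24 and 13.13 in Dom/Dom and 13.28, 13.18, 13.25 and 13.36 in wild type. Every pair was lower in Dom/Dom, most in replicate 4 (-0.23) and least in replicate 3 (-0.01), though Dom/Dom replicate 3 was above wild-type replicate 2. The difference was -0.10 (-0.26 to 0.07), with the smallest exact permutation p of the members (0.114). H2ac15 and H2bc14 were the 2 of 24 members that moved one way in all 4 pairs, which 21.1% of all genes did.

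H2bc1, the germ-line H2B gene, read 9.15, 8.997, 9.47 and 9.25 in Dom/Dom and 9.23, 9.15, 9.38 and 9.30 in wild type; replicate 3 was highest and replicate 2 lowest in both. It differed by -0.05 (-0.28 to 0.19), as its head-to-head partner H2ac1 did by -0.002. The other 5 H2B genes differed by -0.04 to 0.02: H2bc9 was at 12.42 ± 0.09 and 12.46 ± 0.08, H2bc3 at 12.26 ± 0.32 and 12.29 ± 0.24, H2bc4 at 11.18 ± 0.18 and 11.19 ± 0.20, H2bc8 at 9.44 ± 0.16 and 9.42 ± 0.03, and H2bc22 at 7.73 ± 0.11 and 7.71 ± 0.03 (SD, n = 4). H2bc8 and its partner H2ac8 thus both lay within 0.03 of 0.

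The 2 H3 genes with a probe set of their own were H3c4 and H3c7. H3c4 read 8.78, 8.86, 9.03 and 8.81 in Dom/Dom and 8.85, 8.84, 8.90 and 8.97 in wild type, with a difference of -0.02 (-0.19 to 0.16). H3c7 read 6.32, 6.69, 6.53 and 6.66 against 6.75, 6.52, 6.53 and 6.59. Replicate 1 held both its lowest Dom/Dom and its highest wild-type array, a gap of -0.43, while the other 3 pairs lay between 0.001 and 0.17. The difference of H3c7 was -0.05 (-0.27 to 0.17).

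Of the 5 H4 genes, 0 passed, with differences from -0.03 to 0.09. H4c9 read 8.99, 9.06, 9.46 and 9.32 in Dom/Dom and 8.997, 9.13, 9.20 and 9.13 in wild type. Replicates 3 and 4 were higher in Dom/Dom (by 0.26 and 0.18) and replicates 1 and 2 were not (-0.005 and -0.06). The difference was 0.09 (-0.15 to 0.34), with 0.01 left without Dom/Dom replicate 3 and 0.17 without Dom/Dom replicate 1. H4c6 read 12.43, 12.52, 12.54 and 12.30 against 12.31, 12.51, 12.45 and 12.35, a difference of 0.04 (-0.14 to 0.23) with groups that lay across each other.

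H4c4 had the brightest probe set of the members, near the highest value of the arrays. It read 14.53, 14.54, 14.36 and 14.38 in Dom/Dom and 14.53, 14.59, 14.32 and 14.37 in wild type. Replicates 1 and 2 were above replicates 3 and 4 in both genotypes, while the genotype means, 14.45 ± 0.10 and 14.45 ± 0.13 (SD, n = 4), were the same to 2 decimals. Whether signal near the top of the scale compresses differences in such probe sets was not tested. H4c3 stood at 10.94 ± 0.14 and 10.97 ± 0.08, a difference of -0.03 (-0.23 to 0.17).

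**Figure D2:**
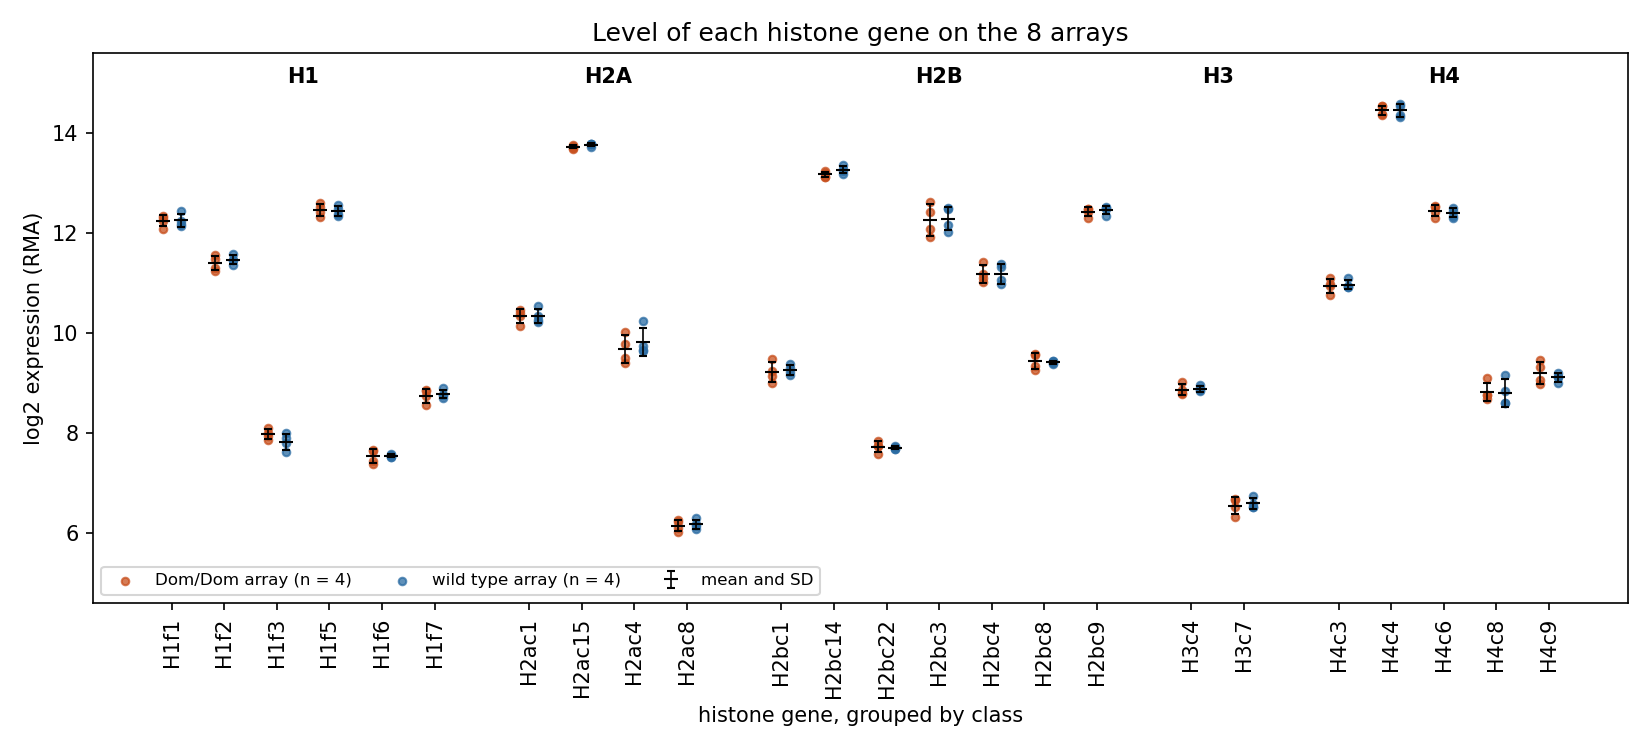
Level of the 24 histone genes (x axis, grouped by class) as log2 expression (y axis) on 4 Dom/Dom and 4 wild-type arrays; points are arrays, and bars the mean and SD of a genotype. In every gene the points of the 2 genotypes overlap, from H2ac8 near 6.17 to H4c4 near 14.45.

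Probe sets that name several histone genes cover the copies that have none of their own, but most of them also list members. There were 23 such probe sets, 8 for H3, 6 for H4 and 7 for H2B (the annotation also lists the symbol H4bc24 in them). The others were 1 for H2A (with H3c4 and the variants H2aj and H2ax also listed) and 1 for the neighbours H2bc6 and H1f4. Of the 23, 21 name 11 to 20 symbols each and had mean levels between 13.94 and 14.53, near the top of the arrays' scale; within a genotype their SD ran from 0.01 to 0.10. Among these, 2 pairs of probe sets held identical values on all 8 arrays. Fitted together with all genes, 0 of 23 passed, and their differences ran from -0.04 to 0.04 log2 units. As deposited, 22 of the 23 lay at or below 0, with the probe set for H2bc6 and H1f4 at 0. The 1 above was the probe set for H4c17 and H4c11 (level 8.55, difference 0.04). Once each array was centred on its median 21 lay above 0, with a median of 0.016 beside 0.035 over all genes. No direction is given for these either. These values cannot be assigned to a single gene, and the probe sets of single genes may also receive signal from near-identical copies, which was not tested.

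Some histone genes also varied between replicate numbers. The mean of the 2 same-numbered arrays ranged over more than the genotype difference in 22 of 24 members (91.7%), all but H1f3 and H2bc14. It did so in 93.0% of all genes, so this share is near the background. A range over 4 means of 2 arrays tends to exceed a difference between 2 means of 4 arrays from noise alone. This share therefore cannot show a replicate effect. Tested as a term of the fit with genotype, the replicate number passed in 3 members (12.5%), against 24.6% of all genes. These were H2bc3 (limma adjusted p = 0.0135), H4c8 (adjusted p = 0.0243) and H2ac4 (adjusted p = 0.0336). The count was 5 without replicate number 1, 3 without 2, 1 without 3 and 0 without 4. This term was tested after the data were seen, and what the replicate numbers stand for is not given in the labels.

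H2bc3, an H2B gene, read 11.92, 12.09, 12.63 and 12.42 in Dom/Dom replicates 1 to 4 and 12.02, 12.16, 12.50 and 12.47 in wild type. Replicates 1 and 2 were low and replicates 3 and 4 high in both genotypes, so that the replicate means ranged over 0.60 while the genotypes differed by -0.03 (-0.39 to 0.34). H4c8, an H4 gene, read 8.76, 8.68, 9.10 and 8.76 against 8.60, 8.60, 9.17 and 8.84. It was highest in replicate 3 in both, with a range of 0.50 between replicate means and a genotype difference of 0.02 (-0.29 to 0.33). H2ac4 had a range of 0.56, again with replicate 3 highest.

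By replicate number, the median difference over the 24 members was -0.07, -0.02, 0.04 and -0.05 for numbers 1 to 4. In pair 1, 8 of 24 histone genes were higher in Dom/Dom, in pair 2 10, in pair 3 16 and in pair 4 8; over all genes the shares were 46.8%, 56.5%, 46.2% and 50.1%. By class the pairs did not run together: the H2A median was -0.13, 0.03, -0.05 and -0.06, the H2B median -0.10, -0.06, 0.10 and -0.03, the H3 median (2 genes) -0.25, 0.10, 0.07 and -0.04, the H4 median 0.05, 0.01, 0.04 and -0.05, and the H1 median 0.08, -0.02, 0.06 and -0.05.

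**Figure D3:**
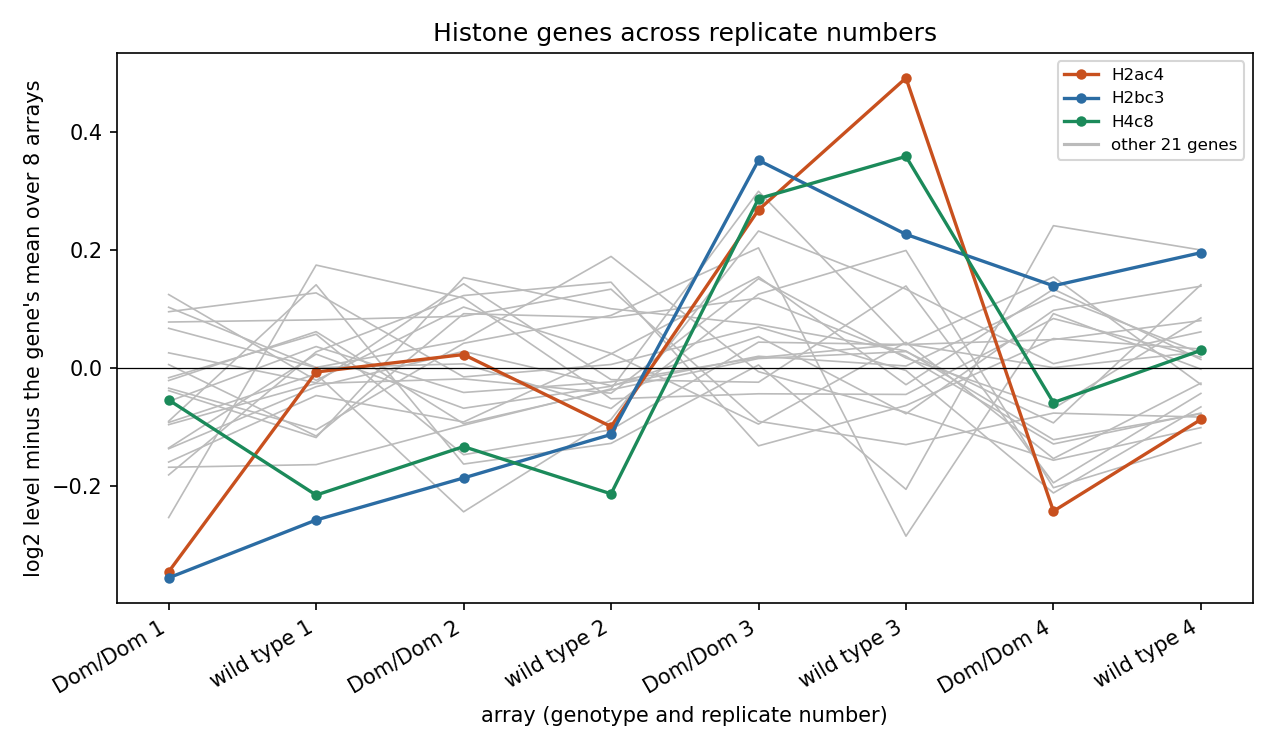
Level of each histone gene on each array minus its own mean over the 8 arrays (y axis, log2 units), with arrays on the x axis as same-numbered pairs; lines only join the points of a gene. H2bc3, H4c8 and H2ac4, coloured, are high in both arrays of replicate 3, and the other 21 genes are grey.

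Genes that make, process or carry histones, or that work beside them in S phase, are set beside the members. Of 51 listed DNA replication genes 13 were measured, and 0 passed in either fit. All 13 lay above 0, with a median difference of 0.11, also after median centring (0.15) and further quantile normalization (0.12), where again 13 of 13 were above 0; the histone genes had medians of -0.013, 0.02 and -0.003 in these settings. The largest were Dtl, a ubiquitin ligase adaptor at replication forks (11.74 ± 0.14 in Dom/Dom, 11.56 ± 0.16 in wild type, SD, n = 4; 95% interval of the difference -0.05 to 0.41), the primase subunit Prim1 (difference 0.18, interval -0.19 to 0.54) and the polymerase epsilon subunit Pole2 (0.15, interval -0.20 to 0.51). By pair, 6, 11, 13 and 13 of the 13 were higher in Dom/Dom, with medians of -0.03, 0.07, 0.22 and 0.25. The histone and replication lists were not tested against each other, and neither was the part that the lower neural crest markers of Dom/Dom have in these values. An unadjusted p under 0.05 without the replicate block was found for 0 of these 13 genes, against 6.11% of all genes. With the block it was found for 4 of the 13, against 13.9% of all genes.

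Of 25 genes of histone mRNA synthesis and 3′ processing 9 were measured, and 0 passed. Their median difference was 0.02, with 7 above 0. Slbp, which encodes the stem-loop binding protein, read 10.90, 11.27, 11.22 and 11.40 in Dom/Dom and 11.06, 11.21, 11.03 and 11.06 in wild type. Dom/Dom replicate 1 was the lowest array of all and the other 3 were above their partners; the difference was 0.11 (-0.13 to 0.35; limma adjusted p = 1.00). Cdk2, the kinase that with cyclin E starts histone transcription, differed by -0.13 (-0.31 to 0.06) and Cpsf2, a subunit of the complex that cuts the 3′ end, by 0.06 (-0.23 to 0.35).

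Of 29 histone chaperones and carriers 12 were measured, with 0 past the threshold, 11 above 0 and a median of 0.07. The largest were Nap1l1, a chaperone of H2A and H2B (13.11 ± 0.12 and 12.95 ± 0.20, SD, n = 4; difference 0.15), Asf1a, a chaperone of H3 and H4 (0.13), and Hira, which deposits H3.3 outside S phase (0.09). Of 18 listed names of histone variants made outside S phase 4 were measured and 0 passed: Macroh2a2 (0.10), Macroh2a1 (0.08), H2az2 (0.02) and H3f3a (-0.08).

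Between the first and the last histone gene of the chromosome 13 cluster lie 41 other measured genes, most of them vomeronasal receptor genes, which are used in olfaction. Their median difference was -0.003, and 0 of 41 passed. The largest was that of Hfe, an iron-regulatory gene, at 8.06, 7.95, 7.75 and 7.76 in Dom/Dom and 8.07, 8.11, 8.19 and 8.30 in wild type. All 4 Dom/Dom arrays were below all 4 wild-type arrays, by a mean of -0.29 (-0.50 to -0.07), without passing (limma adjusted p = 0.436; 0.245 with the replicate block). The next largest was that of the vomeronasal receptor gene Vmn1r206 (6.05 in Dom/Dom, 5.87 in wild type, difference 0.18, interval -0.02 to 0.39, higher in 4 of 4 pairs). Vmn1r199 followed (4.90 and 5.03, difference -0.14, interval -0.38 to 0.10). These and the other vomeronasal receptor genes here lay below the array medians. Without detection calls it is not known whether such dim probe sets detected their genes. In 2 of the 41 genes the genotypes did not overlap, against 3.78% of all genes: Hfe, and in the other direction Vmn1r217, with 7.40 to 7.57 in Dom/Dom and 7.32 to 7.40 in wild type (difference 0.12).

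**Figure D4:**
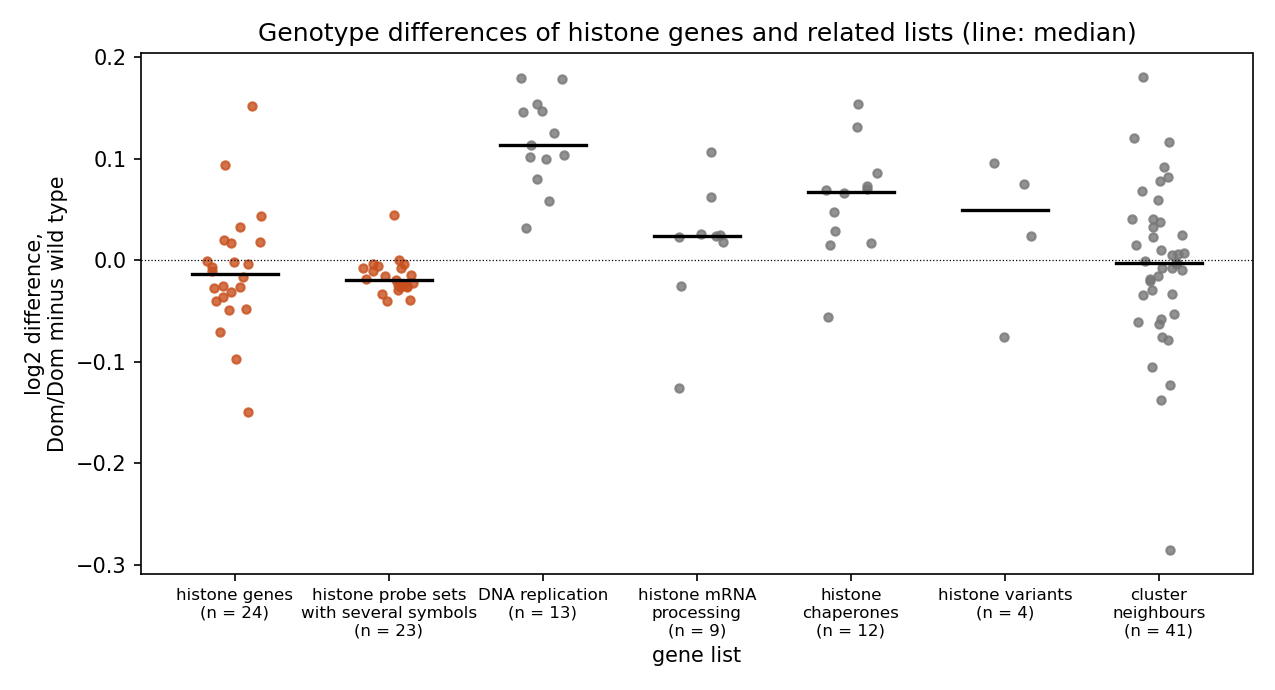
Difference between genotypes (y axis, log2 units, Dom/Dom minus wild type) for the 24 histone genes, the 23 histone probe sets with several symbols and 5 related lists (x axis); each point is a gene or probe set and the line the median. The 13 DNA replication genes all lie above 0, while the histone genes lie on both sides of it.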

How the data were processed

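Expression was measured on 8 arrays, 4 per genotype, from probe made with 250 ng of RNA each. Per the submitters' processing notes, the authors used RMA and Partek; versions, settings and genome build are not given in the sources used here. What they deposited is log2 expression. RMA includes a background correction, normalization between arrays and a summary over the probes of a set, and small differences of dim sets shrink in it. Precision is limited by the number of arrays.

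The table held 16381 probe sets, a part of the array: 7416 with 1 gene symbol, 509 with several and 8456 with none in the platform annotation. Where a gene had several probe sets (308 genes, 0 of them members) the brightest was kept, which left 6855 genes; 6829 were matched to RefSeq (GRCm38.p6) by gene identifier. The main test was limma 3.58.1 under R 4.3.3: lmFit and eBayes with a genotype term alone, two-sided, and Benjamini-Hochberg adjustment over all genes at 0.05. It was checked on simulated data whose noise was independent between arrays, so without an effect shared by a replicate number. Deviations of same-numbered arrays from their genotype's mean correlated at 0.47, 0.58, 0.61 and 0.67 (numbers 1 to 4). Arrays of different numbers correlated at -0.56 to 0.38. The numbers were therefore taken as pairs for the replicate block and the differences by replicate number, though the labels do not say so. The main test, its intervals and the permutation tests did not use the pairs. Alternatives were the replicate block, leaving out each array, and other filters, probe sets, normalizations, variance models, array weights and members.

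Named with array-by-array values were the brightest gene of each class and the 5 largest positive and 5 largest negative differences. The rule also took any gene past the threshold in either fit or without overlap (0 genes). The 3 largest differences of each related list were named with means or differences. H2bc3, Vmn1r217, and the values of Slbp and Hfe by array, were added after their values were seen. Related genes came from lists by function. The members, lists and tests were chosen with earlier results of these data known.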

Additional observations from a re-analysis of the deposited data

Results flagged for a closer look

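Each genotype's 4 arrays were searched, for each of the 24 histone genes, for a single array far from the other 3. Of 48 sets of 4 arrays 2 held one, where about 2.4 are expected by chance. H2ac4 was high in wild-type replicate 3 (10.24, against 9.65 to 9.74 in the other 3 wild-type arrays). H4c3 was high on the same array (11.10, against 10.91 to 10.94). Without that array the difference of H2ac4 was -0.01. Replicate 3 was also the highest Dom/Dom array of H2ac4 (10.02), and without that Dom/Dom array the difference was -0.26.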

How the results depend on the processing

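The count of histone genes past the threshold was 0 in each of 17 settings: with the replicate block, without each of the 8 arrays, and under 8 other choices of filter, probe set, normalization, variance model, array weights and members; H1f3 with array weights had the single unadjusted p under 0.05. The median difference of the members lay between -0.040 and -0.004 without 1 array and between -0.019 and 0.022 otherwise, less than its SD of 0.049 between replicate numbers away from the value as reported; without the germ-line genes, added after seeing the data, it was -0.011.

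The count over all genes (33) was 103 with the replicate block, 4 over all probe sets, 190 with array weights and 10 to 51 without 1 array: 11 and 12 without Dom/Dom replicates 3 and 4, 10 without wild-type replicate 3 or 4 and 51 without wild-type replicate 2. The block changed no call among the histone genes. The count of members that differed between replicate numbers (3) ran from 0 to 5 without 1 number.

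Members near 0 changed sign, none past the threshold in any of these fits. H3c4 was 0.019 after median centring, 0.024 after quantile normalization and 0.013 with array weights; H4c4 was 0.035 and 0.026 after centring and with array weights, and H4c8 -0.042 with array weights. Without 1 array, H1f5 ran from -0.012 to 0.080, H2bc1 from -0.134 to 0.025, H3c4 from -0.070 to 0.013, H3c7 from -0.095 to 0.029, H4c4 from -0.044 to 0.044 and H4c8 from -0.072 to 0.144. The cause of these changes was not tested.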
